A study of Mus musculus with 43 samples.

Results

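The 9 genes described here encode parts of the complement system and receptors for its products. They are C1qa, C1qb, C1qc, C3, C4b, Cfb, C3ar1, C5ar1 and Itgam, chosen by symbol for what they encode, and all 9 were found among the 23953 gene symbols of the data. These genes, and the lists of other complement genes used below, were chosen with earlier results of these data known. Counts of them set beside shares of all genes are therefore descriptions. RNA was measured in 43 libraries from mouse visual cortex, 12 of them from sorted microglia and 31 from sorted neuronal nuclei. Values are FPKM, which divide fragments by the length of a transcript and by library size, so levels of different genes can be set side by side.

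Microglia were sorted by CD11b and CD45 antibodies and came from CK mice, from CK-p25 mice without stimulation, and from CK-p25 mice given GENUS (n = 4 libraries each). GENUS is visual stimulation at 40 Hz. CK-p25 mice carry Camk2a-tTA and tetO-CDK5R1/GFP, which put GFP and p25 (a shortened form of a Cdk5 activator) under control of a promoter active in excitatory neurons, not in microglia. Their p25 had been induced for 6 weeks, and GENUS lasted 43 days. CK mice are named as wild type controls in the labels, and no age or allele is given for them. Neuronal nuclei were sorted by NeuN from CK (n = 5), CK-p25 (n = 5) and CK-p25 GENUS mice (n = 4). A separate neuronal set came from wild type mice (WT, n = 6), P301S mice (n = 6) and P301S mice given GENUS for 22 days (n = 5). The P301S line, Tg(Prnp-MAPT*P301S)PS19, makes mutant human tau from the Prnp promoter, and these mice were 8 months old. Nothing in the labels says that libraries of a group came from separate animals, so the p-values measure the spread between these libraries, which may be technical.

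Complement is a cascade of proteases and binding proteins that tags surfaces for removal. In the classical pathway C1q, built from C1qa, C1qb and C1qc chains, binds a target and, through its proteases, leads to cleavage of C4 and C2, and these form the enzyme that cleaves C3. In the alternative pathway factor B, the product of Cfb, forms the C3-cleaving enzyme and so amplifies the deposit of C3 fragments. Those fragments are read by complement receptor 3, whose alpha chain CD11b is encoded by Itgam, while the small peptides C3a and C5a act through the receptors C3ar1 and C5ar1. Microglia are the main source of C1q in the brain, and complement tagging of synapses is a known route by which microglia remove them.

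The sort markers matched the labels. The summed FPKM of 18 microglia markers was 38878 to 49300 in microglia and 10.6 to 41.2 in neuronal nuclei. The summed FPKM of 10 neuron markers was 4314 to 6480 in neuronal nuclei and 1.82 to 31.7 in microglia. Other cells' markers were uneven between microglia libraries: the sum of 10 oligodendrocyte markers was 762 in CK replicate 3 and 974 in CK replicate 4 but 135 to 278 in the other 10 microglia libraries, and the sum of 8 monocyte and neutrophil markers was 1168 in CK-p25 GENUS replicate 4 and 25.1 to 480 in the other 11. The sum of 8 perivascular macrophage markers ran from 121 to 361 in CK, 121 to 370 in CK-p25 and 218 to 310 in CK-p25 GENUS. The depth of the microglia libraries is unknown, since their files hold no counts. An exact 0 can be a listing only: of 12 microglia libraries, 3 listed the abundant Apoe at 0 and 7 listed Ctsd at 0.

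In microglia, 7 of the 9 complement genes were higher in CK-p25 than in CK mice and none was lower (limma on log2(FPKM + 1), two-sided, adjusted p under 0.05 over 10394 genes). Over all genes tested in this comparison 27% were called in either direction, 16.1% higher and 10.9% lower. The 7 were C1qa, C1qb, C1qc, C4b, C3, Cfb and C3ar1, and for each of them every CK-p25 library lay above every CK library; 15.9% of all genes tested had such groups. C5ar1 and Itgam did not pass. The median log2 change was 0.82 over the 9 genes and -0.02 over all genes tested. In libraries of many sorted cells, more cells with a transcript and more RNA per cell cannot be told apart. C3 and Cfb were under 1 FPKM on average in CK microglia and passed the filter on low values through the CK-p25 groups.

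**Figure D1:**
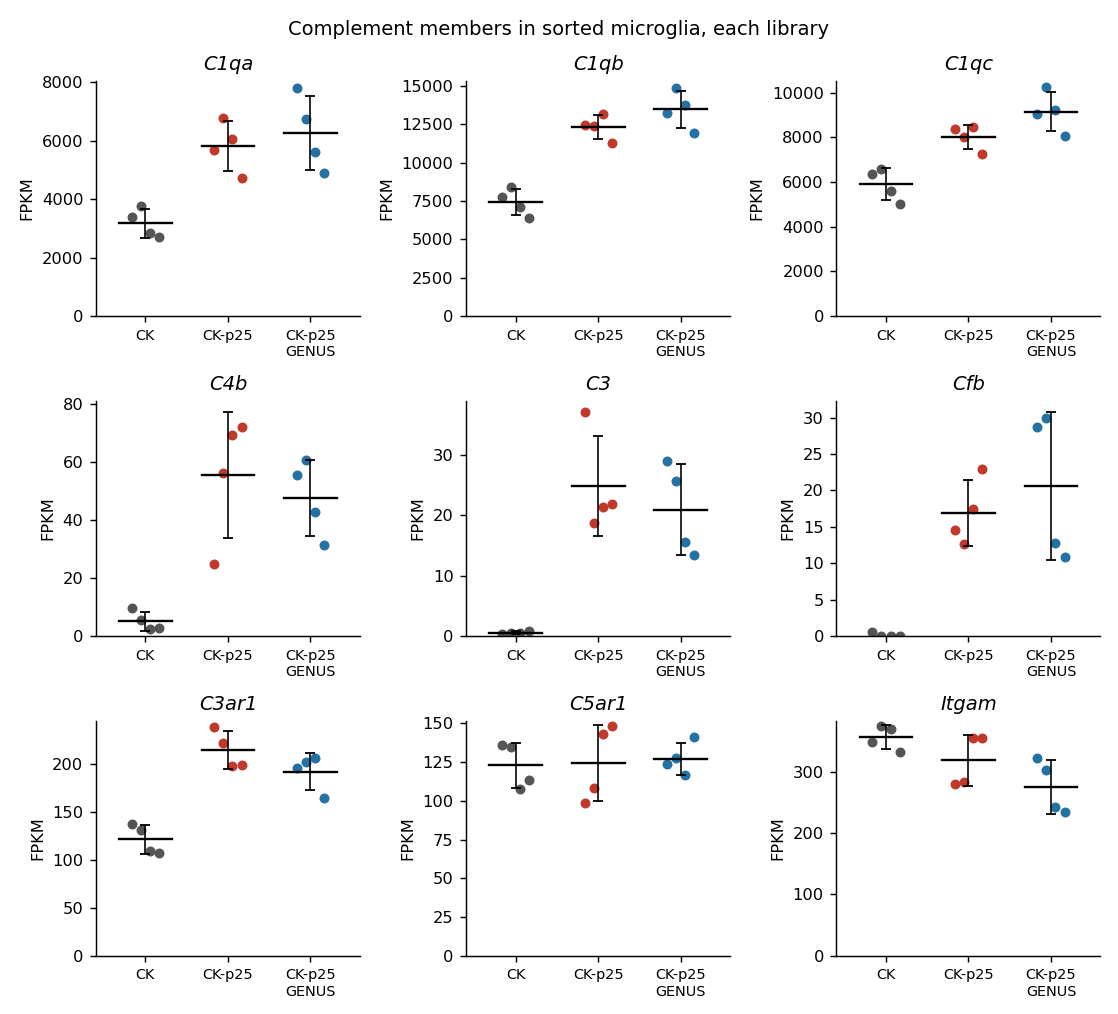
FPKM of the 9 complement genes in each microglia library (points, replicate 1 to 4 from left to right), for CK, CK-p25 and CK-p25 GENUS mice. Horizontal lines are group means and error bars are SD (n = 4), not drawn where a library is listed at 0; C1q chains, C4b, C3, Cfb and C3ar1 lie higher in both CK-p25 groups than in CK, while C5ar1 overlaps.

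The C1q chains start the classical pathway, and their transcripts were among the most abundant in these cells. By mean FPKM in CK microglia C1qb ranked 5, C1qc ranked 7 and C1qa ranked 13 of all symbols, and in CK-p25 microglia they ranked 4, 8 and 14. The 3 transcripts together made up 3.46% ± 0.342 of the summed FPKM in CK, 4.39% ± 0.408 in CK-p25 and 4.76% ± 0.462 in CK-p25 GENUS libraries (SD, n = 4). Apoe and Ctsd, at up to 33132 and 25072 FPKM, are missing from the sums of the libraries that list them at 0. Those listings enter the shares and ranks, and their effect was not measured.

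C1qa was at 3377, 3771, 2837 and 2719 FPKM in CK replicates 1 to 4, at 5674, 6785, 6046 and 4720 FPKM in CK-p25, and at 7780, 6746, 5621 and 4890 FPKM in CK-p25 GENUS. The lowest CK-p25 library lay above the highest CK library, and the GENUS libraries spread around the untreated CK-p25 ones. The log2 change from CK to CK-p25 was 0.87 ± 0.159 (SE, limma adjusted p = 0.000992), a 1.83-fold ratio of the means.

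C1qb was at 7764, 8426, 7121 and 6390 FPKM in CK, at 12470, 12352, 13154 and 11257 FPKM in CK-p25, and at 13223, 14880, 13756 and 11954 FPKM in CK-p25 GENUS. All 8 CK-p25 libraries were above all 4 CK libraries. Its log2 change to CK-p25 was 0.73 ± 0.111 (SE, limma adjusted p = 0.000223), a 1.66-fold ratio.

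C1qc had the smallest rise of the chains. Its FPKM was 6338, 6597, 5585 and 5031 in CK, 8383, 8002, 8441 and 7265 in CK-p25, and 9052, 10252, 9208 and 8077 in CK-p25 GENUS. The groups did not overlap between CK and CK-p25, and the log2 change was 0.45 ± 0.112 (SE, limma adjusted p = 0.00798), a 1.36-fold ratio. This call was lost with no filter on low values (adjusted p = 0.141, with 15.6% of 16744 genes called) and when the 3 libraries high in other cells' markers were left out (adjusted p = 0.0657).

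The chains kept their order of abundance, but their proportions shifted. The ratio of C1qb to C1qc FPKM was 1.23, 1.28, 1.27 and 1.27 in CK, 1.49, 1.54, 1.56 and 1.55 in CK-p25, and 1.46, 1.45, 1.49 and 1.48 in CK-p25 GENUS. The CK libraries stood below all 8 CK-p25 libraries. A scaling of whole libraries cancels in this ratio. The ratio of C1qb to C1qa, by contrast, overlapped between the groups, at 2.23 to 2.51 in CK, 1.82 to 2.38 in CK-p25 and 1.70 to 2.45 in CK-p25 GENUS. The ratios were examined after the values were seen and carry no test. Within groups, C1qb and C1qc followed each other more closely than either followed C1qa: over the 12 libraries, with group means removed, the correlation of log2(FPKM + 1) was 0.98 for C1qb with C1qc, 0.72 for C1qb with C1qa and 0.73 for C1qc with C1qa. Libraries share their preparation and scaling across all genes, and these correlations are descriptions.

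**Figure D2:**
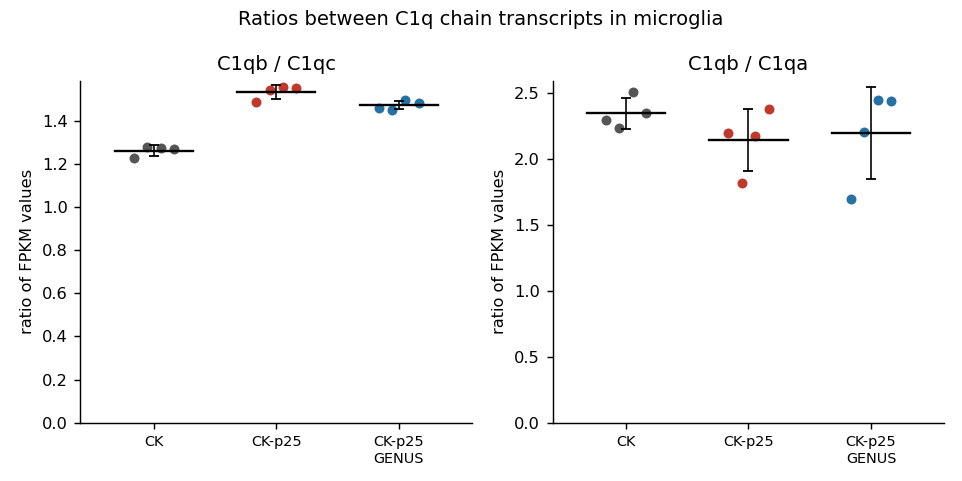
Ratio of FPKM values between C1q chain transcripts in each microglia library (points, replicate 1 to 4 from left to right); lines are means and error bars SD (n = 4). C1qb over C1qc lies at 1.23 to 1.28 in CK and at 1.45 to 1.56 in both CK-p25 groups, while C1qb over C1qa overlaps.

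The 3 chain genes lie side by side on chromosome 4 in the RefSeq annotation, in the order C1qb, C1qc, C1qa, with no other protein-coding gene between them. RefSeq windows of 300 bases, from 250 before to 50 after the annotated start on GRCm38.p6, were at hand for 6 of the 9 genes (C1qb, C1qc, C3, C3ar1, C5ar1 and Itgam). Printed here are the windows of C1qb and C1qc, which followed each other closely within groups, and of C3, with a far larger change to CK-p25. They run 5′ to 3′ on the minus strand, at chr4:136886151-136886450, chr4:136892865-136893164 and chr17:57228087-57228386. Capitals mark matches to the motifs described after them.
C1qb: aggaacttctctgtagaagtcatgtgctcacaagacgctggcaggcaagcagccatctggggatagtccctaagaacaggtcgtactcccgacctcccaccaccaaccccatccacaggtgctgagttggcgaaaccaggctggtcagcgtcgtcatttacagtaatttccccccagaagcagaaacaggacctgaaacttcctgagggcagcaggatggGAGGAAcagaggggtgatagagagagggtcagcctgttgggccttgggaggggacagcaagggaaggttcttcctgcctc
C1qc: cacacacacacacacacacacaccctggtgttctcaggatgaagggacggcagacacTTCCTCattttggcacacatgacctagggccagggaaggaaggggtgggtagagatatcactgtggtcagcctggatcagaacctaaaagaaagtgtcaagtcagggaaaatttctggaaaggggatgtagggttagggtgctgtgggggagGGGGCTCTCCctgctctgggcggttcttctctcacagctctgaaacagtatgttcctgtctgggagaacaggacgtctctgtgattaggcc
C3: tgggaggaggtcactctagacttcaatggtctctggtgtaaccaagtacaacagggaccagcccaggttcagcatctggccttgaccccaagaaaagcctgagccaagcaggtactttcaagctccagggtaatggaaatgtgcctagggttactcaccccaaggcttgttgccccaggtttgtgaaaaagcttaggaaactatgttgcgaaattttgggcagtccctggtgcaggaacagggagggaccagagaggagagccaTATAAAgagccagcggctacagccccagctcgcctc

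Windows were searched on both strands for 5 short motifs. The core bound by PU.1, a factor of the macrophage lineage, was spelled GAGGAA. It was found in C1qb once, in C1qc once (as its reverse complement) and in Itgam at 3 places, and in 28.28% of all 32851 windows. The NF-kB consensus was found in C1qc (8.459% of all windows). The letters TATAAA, searched as the TATA box, were found in C3 and C3ar1 (13.62% of all windows). The match lies at 14 to 19 bases from the annotated start in C3, which is after it, and at -235 to -230 in C3ar1. The interferon-stimulated response element (3.443% of all windows) and the STAT element spelled TTCNNNGAA (8.298%) were in none of the 6 windows. No printed matches overlapped one another. A match describes letters in a window and is not evidence of binding.

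C4b encodes C4, which C1s cleaves after C1q has bound. Its FPKM was 9.57, 5.59, 2.53 and 2.73 in CK, 24.8, 56.2, 69.4 and 72.3 in CK-p25, and 55.5, 60.7, 42.9 and 31.5 in CK-p25 GENUS. The lowest CK-p25 library was replicate 1, and it still lay above all CK libraries. Its log2 change to CK-p25 was 3.25 ± 0.376 (SE, limma adjusted p = 2.14e-05), a 10.9-fold ratio of the means. Oligodendrocytes and astrocytes also make C4; the CK libraries with the highest oligodendrocyte marker sums, replicates 3 and 4, had the lowest C4b, and the sum of 10 astrocyte markers overlapped between CK (147 to 208) and CK-p25 (131 to 189). The sum of 8 perivascular macrophage markers was 361, 274, 121 and 194 in CK, where C4b was highest in replicates 1 and 2. In CK-p25 that sum was 370, 338, 121 and 158, and there C4b was lowest in replicates 1 and 2. The part of any of these cells in the C4b values was not tested. C4b has a near-identical copy, C4a, listed at 0 to 0.0162 FPKM in CK and 0.112 to 0.393 FPKM in CK-p25, and how the authors' counting split reads between them is uncertain.

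C3 is the protein on which both pathways converge. It was listed at 0.246, 0.522, 0.464 and 0.851 FPKM in CK and at 37.1, 18.8, 21.4 and 21.9 FPKM in CK-p25 microglia. With GENUS it was at 29.0, 25.6, 15.6 and 13.5 FPKM. No CK library reached 1 FPKM, and the lowest library of both CK-p25 groups was at 13.5 FPKM. The log2 change from CK to CK-p25 was 4.05 ± 0.253 on the log2(FPKM + 1) scale (SE, limma adjusted p = 8.35e-08), the smallest p of the 9 genes. The ratio of the means was 47.7-fold, over a CK mean of 0.521 FPKM in libraries of unknown depth. C3 passed the filter through the CK-p25 groups, so its place by p says little.

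Cfb, factor B of the alternative pathway, went from near 0 to a level like that of C3. It was listed at 0.529, 0.0460, 0.0153 and 0 FPKM in CK and at 14.5, 12.7, 17.4 and 23.0 FPKM in CK-p25. In the GENUS group it was at 28.7, 30.0, 12.7 and 10.8 FPKM, with replicates 1 and 2 above and replicates 3 and 4 within or below the range of untreated CK-p25. Its log2 change from CK to CK-p25 was 3.95 ± 0.304 on the log2(FPKM + 1) scale (SE, limma adjusted p = 5.58e-07). In CK-p25 microglia the order of mean FPKM was thus C1qb, C1qc, C1qa, Itgam, C3ar1, C5ar1, C4b, C3 and Cfb. The neighbours C4b and C3, with 24.8 to 72.3 against 18.8 to 37.1 FPKM, and C3 and Cfb, with 12.7 to 23.0 FPKM for Cfb, overlapped between libraries.

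C3ar1, the receptor for C3a, was at 137, 132, 110 and 107 FPKM in CK, at 239, 222, 198 and 199 FPKM in CK-p25, and at 196, 203, 206 and 165 FPKM in CK-p25 GENUS. All CK-p25 libraries exceeded all CK libraries. The log2 change to CK-p25 was 0.82 ± 0.108 (SE, limma adjusted p = 6.61e-05), a 1.77-fold ratio.

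The receptor for C5a did not follow. C5ar1 was at 136, 135, 108 and 113 FPKM in CK, at 98.8, 108, 143 and 148 FPKM in CK-p25, and at 124, 128, 116 and 141 FPKM in CK-p25 GENUS. The groups overlapped throughout, and its log2 change to CK-p25 was 0.0031 with a 95% interval of -0.28 to 0.29 (limma adjusted p = 0.991). CK-p25 replicates 3 and 4, the higher ones, also had the higher sums of monocyte and neutrophil markers (480 and 404, against 167 in both replicates 1 and 2). In CK the order was the other way, with the sums highest in replicates 3 and 4 (378 and 423), where C5ar1 was lowest. The part of such cells in the C5ar1 values was not tested.

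Itgam encodes CD11b, the antigen used to sort these cells, so cells with little CD11b on their surface would not have entered the libraries. It was at 349, 375, 370 and 333 FPKM in CK, at 280, 284, 355 and 355 FPKM in CK-p25, and at 323, 303, 243 and 235 FPKM in CK-p25 GENUS. CK and CK-p25 overlapped. The log2 change to CK-p25 was -0.17 with a 95% interval of -0.43 to 0.09 (limma adjusted p = 0.326).

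**Figure D3:**
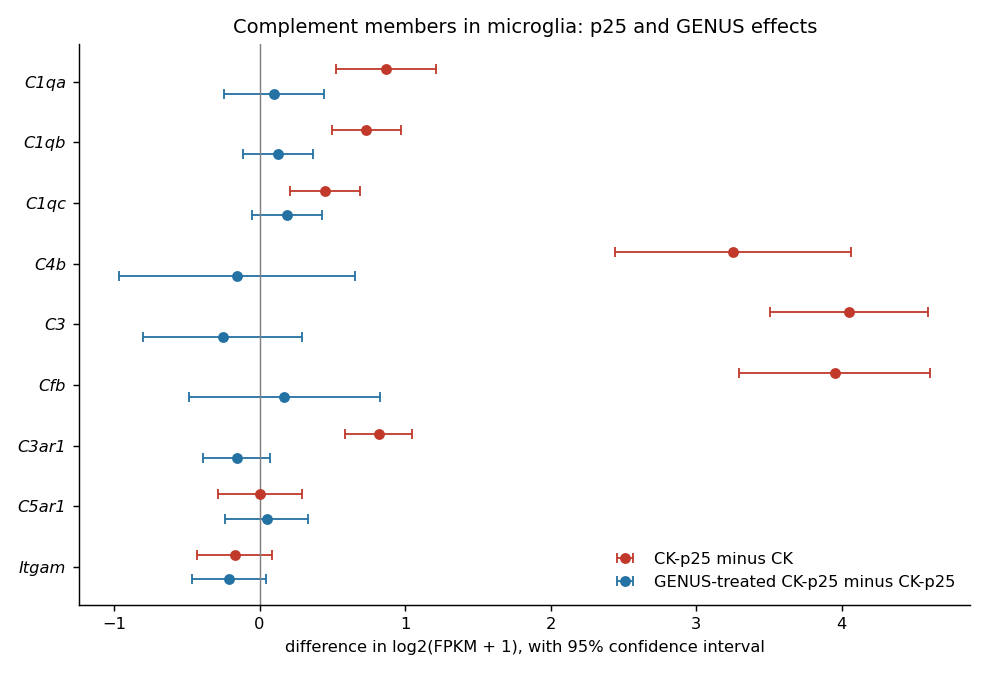
Differences in log2(FPKM + 1) between microglia groups for each complement gene, with 95% confidence intervals from limma (4 libraries a group): CK-p25 minus CK in red and GENUS-treated CK-p25 minus untreated CK-p25 in blue. The red values of C3, Cfb and C4b exceed 3, those of the C1q chains and C3ar1 lie between 0.45 and 0.87, and every blue interval includes 0.

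The calls of C1qc and Itgam depend on the scale. Rescaling each library to a fixed sum over genes that are not small RNAs moved the median of all genes from -0.02 to -0.32 on the log2 scale in CK-p25 against CK microglia. On that scale 6 complement genes were called higher and 1, Itgam, lower at -0.50 (adjusted p = 0.00431), against 47% of all genes called in either direction, and C1qc was not called at 0.13 (adjusted p = 0.360). C5ar1 changed sign to -0.32 without being called. The calls of C1qa, C1qb and C3ar1 held, at smaller log2 changes of 0.55, 0.41 and 0.50. Relative to the shifted median the differences were 0.45 for C1qc, -0.17 for Itgam and 0.0037 for C5ar1, as on the deposited scale. The fixed sums also lack Apoe or Ctsd in the libraries that list them at 0. When the 3 microglia libraries high in other cells' markers were left out, 6 genes were called higher and none lower, against 20.9% of all genes called in either direction.

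GENUS did not change any of the 9 genes in CK-p25 microglia past the test. None of the 10394 genes tested was called in this comparison (0%), and 762 had an unadjusted p under 0.05, none of them a complement gene. For all 9 genes the GENUS libraries overlapped the untreated CK-p25 libraries, while 4.49% of all genes tested had groups that did not overlap. Log2 differences ranged from -0.25 (C3) to 0.19 (C1qc), with a median of 0.05 over the 9 genes and -0.0027 over all genes tested. The 95% intervals were -0.24 to 0.44 for C1qa, -0.11 to 0.37 for C1qb, -0.05 to 0.43 for C1qc and -0.39 to 0.08 for C3ar1. Those of C4b (-0.96 to 0.66), C3 (-0.80 to 0.29) and Cfb (-0.48 to 0.82) are wide, so a change of moderate size in these would have been missed. The lowest adjusted p was that of Itgam, 0.772.

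Set against CK microglia, the GENUS-treated CK-p25 group shared its controls with the untreated comparison. Here 7 genes were called higher and 1 lower, against 30.7% of all genes called in either direction, 17.3% higher and 13.4% lower. The same 7 genes were called higher, with log2 changes of 0.97 (C1qa), 0.86 (C1qb), 0.64 (C1qc), 3.10 (C4b), 3.80 (C3), 4.12 (Cfb) and 0.66 (C3ar1). Itgam was called lower, by -0.38 ± 0.119 (SE, limma adjusted p = 0.0261), with all GENUS libraries under all CK libraries. That call was lost without CK replicate 2 or 3, without GENUS replicate 3 or 4 (adjusted p up to 0.0792), with no filter (adjusted p = 0.0518, with 18% of all genes called) and without the 3 libraries high in other cells' markers (adjusted p = 0.145). On the rescaled values Itgam was lower by more, at -0.73 (adjusted p = 0.000247), and the rises were smaller, at 0.62 for C1qa, 0.51 for C1qb, 0.29 for C1qc and 0.32 for C3ar1, all still called. C5ar1 differed by 0.05 with a 95% interval of -0.23 to 0.34.

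Of the other complement genes, listed by role, 18 were tested in microglia, and between CK and CK-p25 6 were called higher and 1 lower, against 16.1% and 10.9% of all genes tested. Their median log2 change was 0.26. Among the initiators and proteases, 3 of 4 tested rose: C2, which joins C4 in the classical C3-cleaving enzyme (log2 change 2.40, limma adjusted p = 0.000103), Masp1, a protease of the lectin pathway (1.71, adjusted p = 0.000311), and C1ra, which activates C1s (0.92, adjusted p = 0.00260). Masp1 and C1ra stayed low, at 4.97 ± 1.41 and 3.16 ± 0.728 FPKM in CK-p25 (SD, n = 4). Masp1 averaged 0.841 FPKM in CK and passed the filter on low values through the CK-p25 groups, so the 3 of 4 says little. The 6 of 18 called higher also include Masp1. Among the receptors, 3 of 6 rose and 1 fell. Itgb2, the beta chain that pairs with Itgam, rose from 262 ± 30.4 to 417 ± 31.7 FPKM (log2 change 0.67, limma adjusted p = 0.00128). Calr, a chaperone that also binds C1q, rose by 0.32 (limma adjusted p = 0.0181). The median of all genes moved to -0.32 on the rescaled values, about the size of the Calr change. Calls of these 18 genes were not run on that scale. Neither of the 2 alternative and terminal genes tested, Cfp and C8g, and none of the 6 regulators tested passed.

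None of these 18 genes was called by limma between GENUS-treated and untreated CK-p25, and 2 had an unadjusted p under 0.05. Against CK, the GENUS-treated group had 8 of the 18 called higher, against 17.3% of all genes, namely the same 6 and also C1qbp (0.25, limma adjusted p = 0.0382) and the complement inhibitor Cd55 (0.89, adjusted p = 0.0411), and C5ar2 called lower (-0.85, adjusted p = 0.00390). Cd55 was at most 3.17 FPKM in every microglia library. The 8 include Masp1, which passed the filter on low values through the CK-p25 groups. On the rescaled values the median of all genes moved to -0.36 in this comparison, by more than the change of C1qbp. These calls were not run on that scale.

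Several of the 9 genes have a complement gene as their neighbour in the RefSeq annotation, and the pairs differed. Cfb lies next to C2. C2 was at 2.53, 0.831, 0.159 and 1.21 FPKM in CK and at 15.6, 7.47, 11.3 and 6.45 FPKM in CK-p25, so both genes of that pair rose. C5ar1 lies next to C5ar2, a second receptor for C5a. C5ar2 was at 11.8, 16.1, 16.4 and 13.9 FPKM in CK and at 5.09, 5.32, 9.09 and 7.52 FPKM in CK-p25, with no overlap, and its log2 change was -1.03 ± 0.190 (SE, limma adjusted p = 0.00110) beside 0.0031 for C5ar1. Itgam lies next to Itgax, which encodes CD11c, the alpha chain of complement receptor 4 that pairs with the same Itgb2. Itgax was at 4.23, 3.16, 3.31 and 1.36 FPKM in CK, at 153, 117, 76.4 and 63.6 FPKM in CK-p25 and at 155, 111, 84.3 and 42.5 FPKM in CK-p25 GENUS. Its log2 change to CK-p25 was 4.66 ± 0.369 (SE, limma adjusted p = 7.12e-07), beside -0.17 for Itgam.

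**Figure D4:**
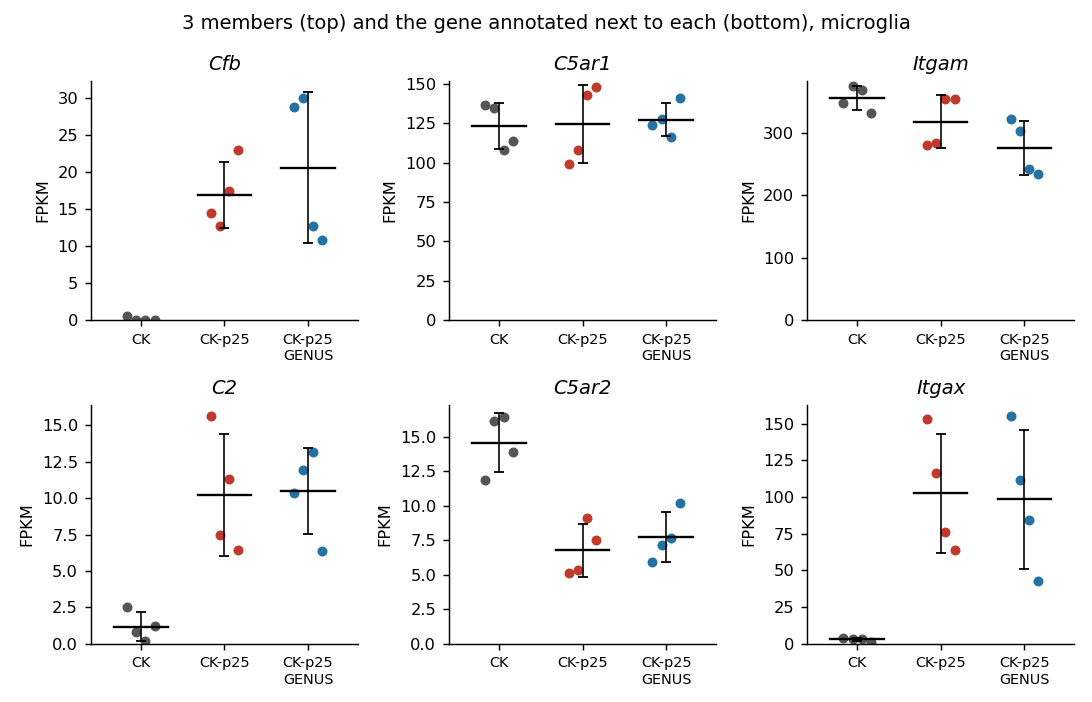
FPKM in each microglia library (points, replicate 1 to 4 from left to right) of Cfb, C5ar1 and Itgam above and of the complement gene annotated next to each below. Lines are means and error bars SD (n = 4), not drawn where a library is listed at 0; C2 rises with Cfb, C5ar2 is lower in CK-p25 while C5ar1 overlaps, and Itgax is higher while Itgam overlaps.

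The genes whose values followed each complement gene most closely over the 12 microglia libraries, among 9783 named genes, were for C3 Gla, Tlr2 and Csf1 (Pearson r 0.99 each), for Cfb Ifih1, Lgals3bp and Pkm (0.99, 0.99 and 0.98) and for C4b Ly6e, Tor3a and Fcgr4 (0.98 each). C1qa was closest to Ctsa, Itgb2 and Pwwp2b (0.98 each), C1qb to Eef1g, Psmb8 and Mif (0.98 each) and C1qc to Ndufa12, Cant1 and Plbd2 (0.96 each). C3ar1 was closest to Lamp2, Lamp1 and Ifnar2 (0.98, 0.98 and 0.97). The closest genes to C5ar1 (Rac2, Tssc1 and Dyrk4, 0.86 to 0.84) and Itgam (Gtpbp1, Ctnnbl1 and Sema4c, 0.90 to 0.89) were less close. The 12 libraries include the step between CK and CK-p25, and how much of each correlation that step gives was not measured.

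In neuronal nuclei the same genes were at the edge of detection. Low FPKM values in these libraries fall on steps: 139 of the 142 values above 0 of the 9 genes were whole multiples, within 0.1, of 1 step for the gene after allowing for the relative scale of each library. The step of each gene was fitted to these same values, so a high share is partly built in, most of all for genes with few values. Each step is taken here as 1 sequenced fragment, which the files hold no counts to check. The FPKM value of a step differed between libraries from 0.753 to 1.68 of that in the reference library. No gene of the 9 had more than 51 fragments in a neuronal library, and fragments are not independent molecules.

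Of the CK-p25 neuronal set, C1qa, C1qb, C1qc and C4b reached a mean of 1 FPKM and were tested. All 4 were at 0.306 FPKM or less on average in CK and passed the filter through the CK-p25 groups, so a count of them says little. Only C1qc was called between CK and CK-p25, against 1.01% of 12567 genes called in either direction and 0.891% called higher.

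C1qc had a value of 0 in each of the 5 CK libraries and was at 1.74, 0.703, 2.19, 1.10 and 1.23 FPKM in CK-p25, which is 3, 1, 4, 2 and 3 fragments. With GENUS it was at 2.17, 1.80, 2.04 and 2.35 FPKM, or 4, 3, 3 and 4 fragments. Every CK-p25 library was above every CK library, by 1 to 4 fragments. Summed over the 5 libraries of each group, the fragments were 0 in CK and 13 in CK-p25. A sum of 0 allows up to 3 for the 5 CK libraries together, were fragments independent, which they are not. Limma's adjusted p was 0.00709 for CK-p25 and 0.00114 for CK-p25 GENUS against CK. The fitted change depends on the pseudocount, since CK was at 0 throughout. The 5 equal CK values also add no spread to the estimate behind these p-values. For CK-p25 against CK the SE was 0.204, beside 0.387 for C1qa and 0.415 for C1qb. The call alone thus does not set C1qc apart from C1qa and C1qb. With exact zeros treated as missing the gene could not be compared with CK.

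C1qa was at 0, 0, 0.898, 0.632 and 0 FPKM in CK, at 2.25, 2.04, 1.59, 0.535 and 0.798 FPKM in CK-p25 and at 5.77, 5.25, 3.96 and 0.569 FPKM with GENUS. The fragments summed to 3, 13 and 27 in these groups. The groups overlapped, and only GENUS-treated CK-p25 against CK was called (log2 change 1.76 ± 0.410 SE, limma adjusted p = 0.0475, against 1.46% of all genes called and 1.07% called higher). This call was lost with a pseudocount of 0.1, where the log2 change was 3.69 (adjusted p = 0.0513), and with no filter on low values (adjusted p = 0.0541).

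C1qb was at 1.09 FPKM in CK replicate 1 and listed at 0 in the other 4 CK libraries. It was at 2.88, 1.40, 1.08, 0.548 and 2.45 FPKM in CK-p25 and at 1.07, 1.19, 8.11 and 1.17 FPKM with GENUS, where replicate 3 alone held 12 of the 18 fragments. No comparison of C1qb was called (limma adjusted p = 0.302 for CK-p25 and 0.133 for CK-p25 GENUS against CK).

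C4b was at 0.279, 0.467, 0, 0.111 and 0.136 FPKM in CK, at 0.887, 1.20, 0.464, 0.559 and 0.911 FPKM in CK-p25 and at 2.10, 1.12, 5.89 and 1.50 FPKM with GENUS. The highest value, in GENUS replicate 3, is 51 fragments. GENUS libraries lay above all CK libraries and were called (log2 change 1.46 ± 0.311 SE, limma adjusted p = 0.0310), while CK-p25 against CK was not (0.59, adjusted p = 0.473) and overlapped narrowly, at 0.464 against 0.467 FPKM.

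The sums of microglia and astrocyte markers reached their highest values in the GENUS group of these neuronal libraries. The sum of the 18 microglia markers was 16.4 to 21.5 FPKM in CK, 19.6 to 26.9 in CK-p25 and 25.5 to 41.2 in CK-p25 GENUS, with Tyrobp and Cd53 at 0 in every CK library and Cd53 also in the other groups. The sum of 10 astrocyte markers was 136 to 171 FPKM in CK, 129 to 194 in CK-p25 and 181 to 303 in CK-p25 GENUS. GENUS replicate 3, which had the highest C1qb and C4b, also had the highest of both sums, whereas GENUS replicate 1, with the highest C1qa, had the lowest microglia sum of its group (25.5). The sum of 10 oligodendrocyte markers was 81.8 to 121 FPKM in CK, 66.0 to 84.6 in CK-p25 and 72.7 to 102 in CK-p25 GENUS, and that of 8 endothelial markers was 2.61 to 8.15, 1.78 to 3.35 and 1.47 to 9.41 FPKM. Their part in the complement values was not tested. GENUS against untreated CK-p25 called none of the 4 genes and none of all 12567 (0%); 933 had an unadjusted p under 0.05, among them C4b. The calls of C1qa and C4b against CK did not hold with the 2 groups alone in the fit (adjusted p = 0.112 and 0.0796), and 1 or 2 of the 3 calls against CK were left whichever CK or GENUS library was left out. Among these runs C1qa was called only without GENUS replicate 4. C4b was lost without CK replicate 1, 3, 4 or 5 or GENUS replicate 1 and fell under the filter without GENUS replicate 3, and C1qc stayed called except without GENUS replicate 4, where it fell under the filter.

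**Figure D5:**
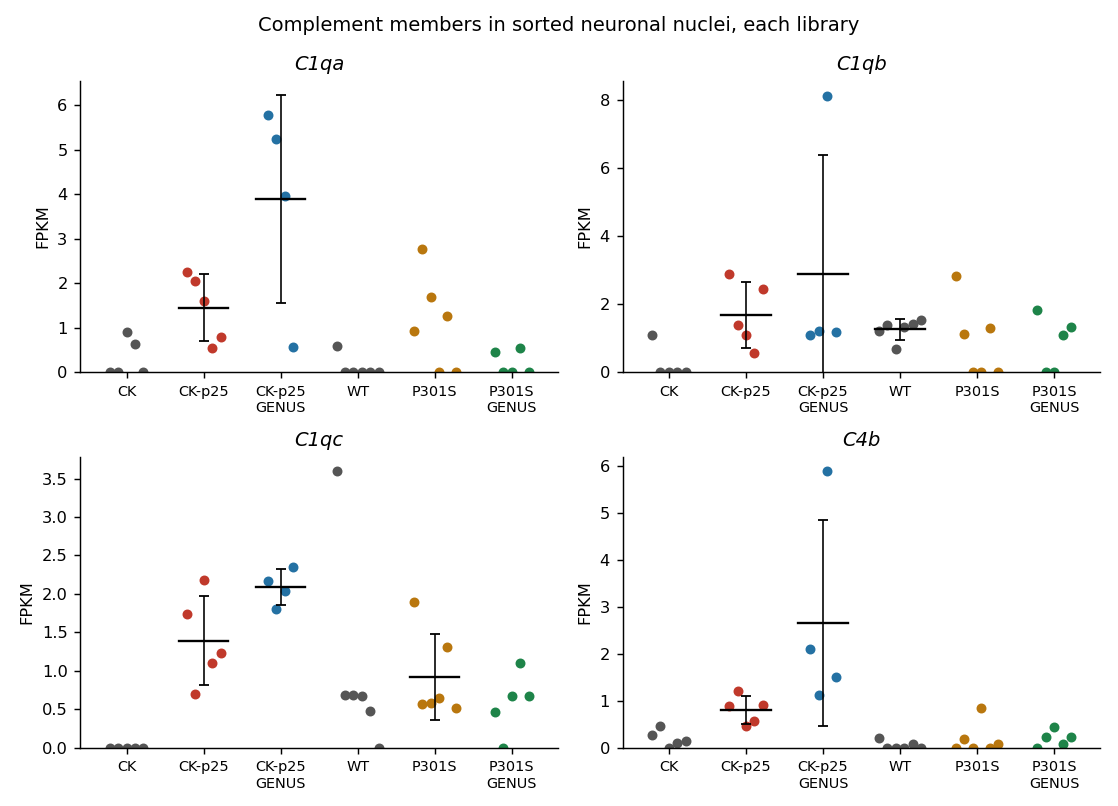
FPKM of the 4 complement genes with a mean of at least 1 FPKM in the CK-p25 set, in each neuronal nuclei library (points in order of replicate number). Lines are means and error bars SD (n = 4 to 6), not drawn where a library is listed at 0; C1qc is at 0 in every CK library, and GENUS replicate 3 of CK-p25 is the highest for C1qb and C4b.

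The other 5 genes were under the filter in both neuronal sets. C3 was at 0 to 4 fragments a library, Cfb at 0 to 2, C3ar1 at 0 to 5, C5ar1 at 0 to 2 and Itgam at 0 to 6. Cfb was listed at 0 in all 17 libraries of the P301S set. With no filter none of the 5 was called by limma in any neuronal comparison. The share of all genes called with no filter was 0.638% for CK-p25 against CK, 0.0055% for GENUS in CK-p25, 1.15% for CK-p25 GENUS against CK and 0.0114% for P301S against WT, and 0% for both other P301S comparisons.

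Mutant tau was not accompanied by a called change. In the P301S set C1qb alone reached 1 FPKM on average. It was at 1.19, 1.37, 0.685, 1.33, 1.42 and 1.52 FPKM in WT, at 2.82, 1.13, 0, 0, 1.29 and 0 FPKM in P301S and at 1.84, 0, 0, 1.09 and 1.33 FPKM in P301S GENUS. The groups overlapped, and the log2 difference was -0.46 with a 95% interval of -1.22 to 0.31 for P301S against WT (limma adjusted p = 0.921; 1 of 12239 genes called, 0.00817%), 0.05 with -0.75 to 0.85 for GENUS against untreated P301S (adjusted p = 0.999; 0% called, 524 genes with an unadjusted p under 0.05) and -0.40 with -1.20 to 0.40 for P301S GENUS against WT (adjusted p = 0.940; 0% called, 701 genes with an unadjusted p under 0.05). C1qa summed to 1 fragment over 6 WT libraries, 11 over 6 P301S libraries and 2 over 5 P301S GENUS libraries. C1qc summed to 10, 8 and 5 fragments, with 6 of the 10 in WT replicate 1, and C4b to 3, 11 and 9, with 8 of the 11 in P301S replicate 4.

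The differences between the models were tested in one fit over the 31 neuronal libraries, in which C1qa and C1qb passed the filter. The p25 effect exceeded the tau effect on C1qb by 1.58 on the log2 scale, with a 95% interval of 0.44 to 2.72, which did not pass adjustment (limma unadjusted p = 0.00829, adjusted p = 0.440; 0.281% of 12460 genes called). C1qb passed the filter only with CK-p25 GENUS replicate 3 (8.11 FPKM), a library outside that contrast, so this difference says little. For C1qa the difference between the p25 and tau effects was 0.10, with an interval of -0.92 to 1.12. The difference between the GENUS effects on C1qa in CK-p25 and in P301S was 1.54, with an interval of 0.47 to 2.62. It was likewise not called (limma unadjusted p = 0.00656, adjusted p = 1, with 0% called and 542 genes at an unadjusted p under 0.05). C1qa averaged 3.89 FPKM in CK-p25 GENUS and at most 1.44 FPKM in the other neuronal groups. It passed the filter through the CK-p25 GENUS group, so this difference says little. The sets also differ in days of GENUS, and no batch is given for them, so the model cannot be told apart from these.

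Of the other complement genes, 22 were tested in the CK-p25 neuronal set and 20 in the P301S set, and none was called by limma in any of the 6 comparisons, with 0 to 2 genes at an unadjusted p under 0.05 in each.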

How the data were processed

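RNA was measured in sorted microglia and NeuN-sorted nuclei of mouse visual cortex. Per the labels, microglia were prepared with SMART-Seq v4 and nuclei with a SMARTer stranded total RNA kit for low input. The authors deposited 1 table of FPKM values per library. The submitters' processing notes name STAR, Cufflinks 2.0.0 and mm9 without saying what each did; no source used here gives the annotation or strand setting. RefSeq windows are on GRCm38.p6, another build, so no gene coordinates from it are set beside the files.

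Groups came from the titles. The 9 genes and all lists were chosen with earlier results of these data known. Within each set (CK-p25 microglia, CK-p25 neurons, P301S neurons) genes averaging 1 FPKM or more were fitted by limma 3.58.1 (R 4.3.3) on log2(FPKM + 1), with 3 groups sharing 1 estimate of the spread and a mean-variance trend. A log2 change on this scale understates the change of low genes. P-values are two-sided and Benjamini-Hochberg adjusted over all tested genes, with a threshold of 0.05. The model was also run on simulated normal log2 values with changes placed only in genes well above 0. That run says nothing about genes near 0, such as the complement genes in neurons. All 9 genes were named by rule, with every other complement gene past the test (at most 5 a direction by p) and the 3 genes most like each member. Markers by cell type were summed per library. Replicate numbers were not used as pairs. No 2 files held identical values. Relative depth in neurons was read from steps in low FPKM values; no counting interval is given for microglia, whose depth is unknown. Alternatives were another pseudocount, no filter or a filter of 5, other scalings, exact zeros as missing, the 2 groups alone, a replicate block and leaving out each library. Leaving out 3 libraries high in other cells' markers was chosen after seeing the data. Promoter entries were at hand for 6 of the 9 genes. Python 3.11.15 was used for joins and figures. The values of 1 other complement gene are not reported here.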

Additional observations from a re-analysis of the deposited data

Results flagged for a closer look

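In 14 of 73 sets of values (1 gene in 1 group of libraries), the highest library stood apart from the others by Dixon's gap ratio; chance gives about 1 in 20, but that rate does not hold for 8 of the 14, in which every other library of the group was at 0 and any fragment stands apart. The one in microglia was Cfb in CK replicate 1, at 0.529 FPKM, above the other 3 CK libraries and under every library of both CK-p25 groups. The other 13 were in neuronal nuclei and rest on 1 to 12 fragments. In CK-p25 GENUS replicate 3, C1qb was at 8.11 FPKM and Cfb at 0.234 FPKM. In WT replicate 1, C1qc was at 3.604 FPKM and C1qa at 0.582 FPKM. C4b was at 0.842 FPKM in P301S replicate 4. In P301S GENUS, replicate 5 had C3ar1 at 0.700 FPKM and C5ar1 at 0.503 FPKM, and replicate 3 had C3 at 0.349 FPKM. The remaining 5 values were C1qb in CK replicate 1 (1.09 FPKM), C3 in WT replicate 5 (0.0826 FPKM) and in P301S replicate 5 (0.112 FPKM), Cfb in CK replicate 3 (0.160 FPKM) and C3ar1 in WT replicate 4 (0.139 FPKM), each the only library of its group above 0.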

How the results depend on the processing

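The count of complement genes called between CK-p25 and CK microglia (7) was 7 whichever library was left out, and 6 with no filter and with the 3 marker-rich libraries left out, an alternative chosen after seeing the data. C1qa, C1qb, C4b, C3, Cfb and C3ar1 were called against CK, in both CK-p25 groups, under every alternative run. The count for GENUS in CK-p25 microglia was 0 throughout. In CK-p25 neurons the 1 call against CK became 0 with exact zeros as missing, since C1qc was then missing from CK. The 3 calls of CK-p25 GENUS against CK neurons became 1 with exact zeros as missing, with the 2 groups alone and with the replicate block, 1 to 2 with a library left out, and 2 with a pseudocount of 0.1 and with no filter, where C1qa was lost. With the replicate block C1qa and C4b were lost (adjusted p = 0.0976 and 0.102) and no other call changed. Not every pair of same-numbered libraries deviated together, so replicate numbers were not taken as pairs: the deviations of same-numbered libraries correlated at 0.01 to 0.34 among microglia (8 of 12 pairs over 0.1), -0.10 to 0.06 among CK-p25 neuronal libraries and -0.05 to 0.11 for the P301S set, and 7 of 12 microglia, 2 of 14 and 4 of 17 libraries were closest to a library of their own number. A filter of 5 FPKM left no complement gene in neurons. The block and the 2-group fit were not run for differences between effects.

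Signs reversed only for values that no fit of the report called. Rescaled without small RNA genes, C5ar1 was -0.32 in CK-p25 and -0.29 in CK-p25 GENUS against CK microglia. With exact zeros as missing, C1qb was 0.25 for tau, -0.14 for GENUS in P301S and 0.10 for P301S GENUS against WT, and C1qa was -0.29 for the p25 and tau difference. Without the 3 marker-rich libraries, C5ar1 was -0.14 against CK in CK-p25, -0.0012 for GENUS and -0.14 for CK-p25 GENUS against CK, and C4b was 0.027 for GENUS. With a library left out, C5ar1 ran from -0.087 to 0.11 in CK-p25 and from -0.0082 to 0.10 in CK-p25 GENUS against CK microglia. GENUS effects in microglia ran from -0.014 to 0.21 (C1qa), -0.49 to 0.03 (C4b), -0.054 to 0.14 (C5ar1) and -0.049 to 0.41 (Cfb). In neurons the range was -0.087 to 0.24 for C1qb with GENUS in P301S, -0.078 to 0.26 for C1qa in the p25 and tau difference and -0.016 to 0.42 for C1qb in the GENUS difference. The cause was not tested. Rescaling moved the median of all genes to -0.36 in CK-p25 GENUS against CK microglia and, in neurons, to 0.27 (p25), 0.24 (CK-p25 GENUS against CK), -0.10 (tau), -0.13 (GENUS in P301S), -0.24 (P301S GENUS against WT), 0.37 (p25 and tau difference) and 0.11 (GENUS difference). Neuronal values rest on 0 to 51 fragments.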
